A study of Mus musculus with 12 samples.

Results

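The epidermal growth factor (EGF) ligands and the ErbB receptors were examined in 12 libraries of mouse kidney. The 10 genes were taken by symbol from the deposited gene table, which held 24062 different genes: the ligands Egf, Hbegf, Tgfa, Btc, Areg and Nrg1, and the receptors Egfr, Erbb2, Erbb3 and Erbb4. All 10 were in the table, and 9 passed the filter on low counts. Areg did not pass it and is given as counts.

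The series compared kidneys of a Pkd1 mouse model of polycystic kidney disease, and its title names IRF5 and kidney macrophages. UNx CrePlus mice carried Cre and had 1 kidney removed (unilateral nephrectomy), and UNx CreMinus mice had the same surgery without Cre. Sham CrePlus and sham CreMinus mice were operated on without removal of a kidney. All mice were of the Pkd1 model, were given tamoxifen, were adults aged 6 to 8 weeks, and gave a kidney for RNA 4 weeks after surgery. Each group had 3 libraries of whole-kidney RNA, so fewer cells of a type and less RNA per cell cannot be told apart. The labels name neither the Cre driver, the Pkd1 allele nor the sex of the animals.

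In this family, membrane-bound precursors are cut to release ligands, which make receptor pairs form and switch on the kinase domain inside the cell. EGFR binds EGF, TGF-alpha and amphiregulin; betacellulin and heparin-binding EGF bind EGFR and ErbB4; neuregulin-1 binds ErbB3 and ErbB4. ErbB2 has no known ligand of its own and acts as a partner, and ErbB3 has little kinase activity. In kidney, Egf is made mainly in the thick ascending limb and the early distal convoluted tubule, and EGFR signalling in tubule cells bears on growth, repair, magnesium uptake and cyst growth in polycystic models.

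The library totals fell into 8 of 18914300 to 22480895 counts and 4 of 41699032 to 42785476 counts. The deep ones were UNx CrePlus replicates 1 to 3 and UNx CreMinus replicate 1. Counts of Xist and of 4 Y-linked genes put 5 libraries as male (UNx CrePlus replicates 1 and 2, UNx CreMinus replicate 1, sham CrePlus replicate 3 and sham CreMinus replicate 3) and 7 as female. Depth and sex were thus uneven between the UNx groups. Pkd1, the targeted gene, had 39.6 to 45.5 CPM (counts scaled to library size) in UNx CrePlus and 49.3 to 71.6 CPM in UNx CreMinus kidneys, and 45.9 to 64.1 CPM in sham CrePlus and 57.8 to 76.8 CPM in sham CreMinus kidneys. Its log2 fold change for CrePlus over CreMinus, averaged over surgery, was -0.35 ± 0.13 (SE; edgeR adjusted p = 0.316). Checked against the kidney label, no proximal tubule, thick ascending limb, distal convoluted tubule, collecting duct, podocyte or endothelial marker of the lists used was at 0 in every library of a group, and the 6 proximal tubule markers summed to 10519 to 12915 CPM per library. Markers of urothelium summed to at most 4.90 CPM. Fat markers summed to 17.2 CPM in 1 sham CrePlus library and to at most 1.01 CPM elsewhere. The 4 globin genes looked up are listed at 0 in every library. Alas2, the other blood marker, named after its values were seen and an enzyme of haem synthesis in red cells, had 2.95 to 8.21 CPM in UNx CrePlus, 12.7 to 23.0 CPM in UNx CreMinus, 7.70 to 17.4 CPM in sham CrePlus and 16.5 to 27.3 CPM in sham CreMinus kidneys. It was not called in edgeR, and DESeq2 called it lower with Cre in UNx kidneys and averaged over surgery; its part in the values of the family was not tested.

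Promoter sequences of 3 members are shown because the results turn on these genes: Egf had the largest log2 fold change with Cre among the members tested in UNx kidneys, Egfr is the receptor of most of the ligands, and Erbb2 passed the test between male and female libraries. Each runs 5′ to 3′ from 250 bases before to 50 bases after the start of the gene in RefSeq on GRCm38.p6. Capitals mark a GC box (GGGCGG or its reverse complement CCGCCC) or a CCAAT box (CCAAT or ATTGG), both searched on both strands, as was TATAAA.
Egf, chr3:129755273-129755572, minus strand: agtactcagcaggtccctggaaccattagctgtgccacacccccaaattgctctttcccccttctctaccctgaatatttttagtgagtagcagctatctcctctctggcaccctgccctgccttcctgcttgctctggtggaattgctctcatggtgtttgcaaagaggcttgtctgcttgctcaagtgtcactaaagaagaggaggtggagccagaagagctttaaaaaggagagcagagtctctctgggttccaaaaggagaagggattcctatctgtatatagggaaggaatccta
Egfr, chr11:16751953-16752252, plus strand: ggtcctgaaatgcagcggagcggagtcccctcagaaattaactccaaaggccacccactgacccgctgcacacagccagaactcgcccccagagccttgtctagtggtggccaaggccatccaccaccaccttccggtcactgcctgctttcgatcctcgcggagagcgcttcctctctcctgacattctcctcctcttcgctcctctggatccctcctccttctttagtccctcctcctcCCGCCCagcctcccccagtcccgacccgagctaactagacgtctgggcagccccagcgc
Erbb2, chr11:98412234-98412533, plus strand: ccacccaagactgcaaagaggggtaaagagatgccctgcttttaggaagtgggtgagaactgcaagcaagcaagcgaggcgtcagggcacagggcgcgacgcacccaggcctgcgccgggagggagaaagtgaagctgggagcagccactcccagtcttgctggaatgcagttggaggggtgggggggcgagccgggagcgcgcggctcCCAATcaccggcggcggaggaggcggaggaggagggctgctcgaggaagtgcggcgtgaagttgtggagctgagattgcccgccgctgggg
The Egf window held none of the 3 motifs, had no CpG dinucleotide, and had a GC content of 49.0%. Another Egf entry of the table, at a start inside the gene and not shown, held none of the motifs, 17 CpG dinucleotides and 52.3% GC. The Egfr window held 1 GC box with a GC content of 62.3%, and the Erbb2 window held 1 CCAAT box with a GC content of 66.0%. Over all 32851 promoters of the table the median GC content was 52.7%, and 13.6% held TATAAA, 35.7% a GC box and 37.4% a CCAAT box. Such matches describe letters and show no binding.

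**Figure D1:**
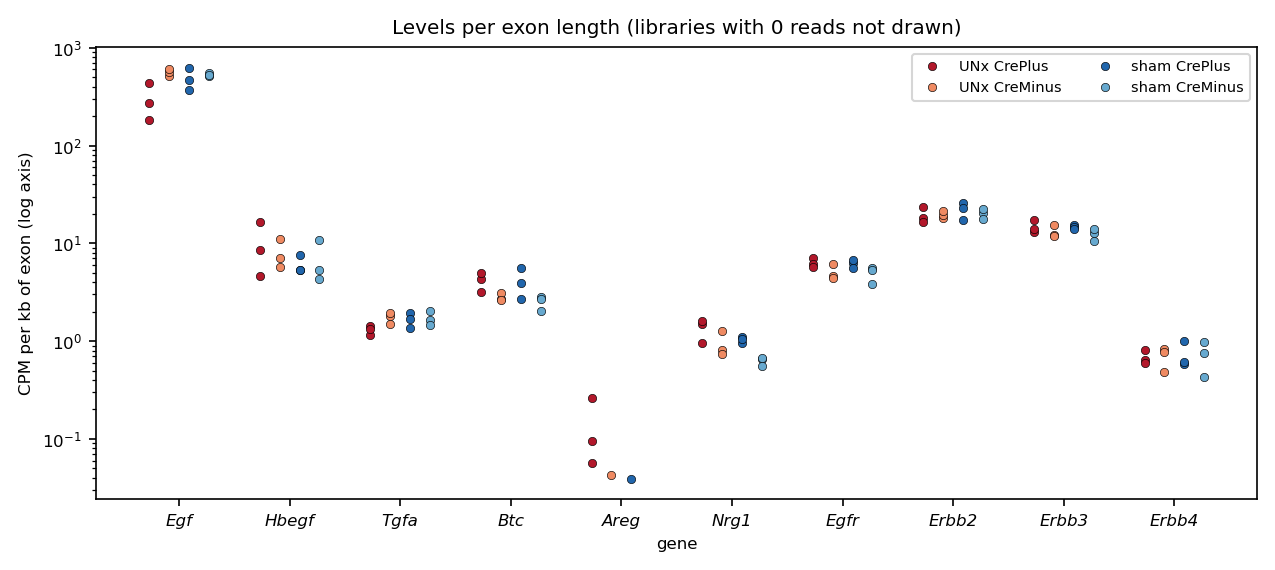
CPM per kilobase of exon (log axis) of the 10 genes, with 1 point per library and the 4 groups side by side from UNx CrePlus to sham CreMinus. Egf, at 181 to 627 CPM per kilobase, lies above every other member in every library, and Areg lies lowest.

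Egf was the most abundant member per unit of exon length, with a mean level of 469 CPM per kilobase over the 12 libraries. Among the receptors Erbb2 was highest at 20.3 CPM per kilobase, followed by Erbb3 at 13.8, Egfr at 5.64 and Erbb4 at 0.711 CPM per kilobase. The other ligands had 7.68 CPM per kilobase for Hbegf, 3.38 for Btc, 1.61 for Tgfa, 0.989 for Nrg1 and 0.0414 for Areg. The neighbours Erbb2 and Erbb3 in this order overlapped in range, since Erbb2 had 16.4 to 26.1 and Erbb3 10.5 to 17.2 CPM per kilobase.

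Of all 4 receptors together, Erbb2 took 46.7% ± 6.24 of the length-scaled reads in UNx CrePlus, 50.9% ± 5.85 in UNx CreMinus, 50.1% ± 4.81 in sham CrePlus and 53.0% ± 5.79 in sham CreMinus kidneys (SD, n = 3). Erbb3 took group means of 32.4% to 36.1%, Egfr of 12.7% to 15.5%, and Erbb4 of 1.66% to 1.86%. The Egfr share was 15.5% ± 2.58 in UNx CrePlus and 12.7% ± 1.62 in sham CreMinus kidneys, and differences in these shares were not tested.

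**Figure D2:**
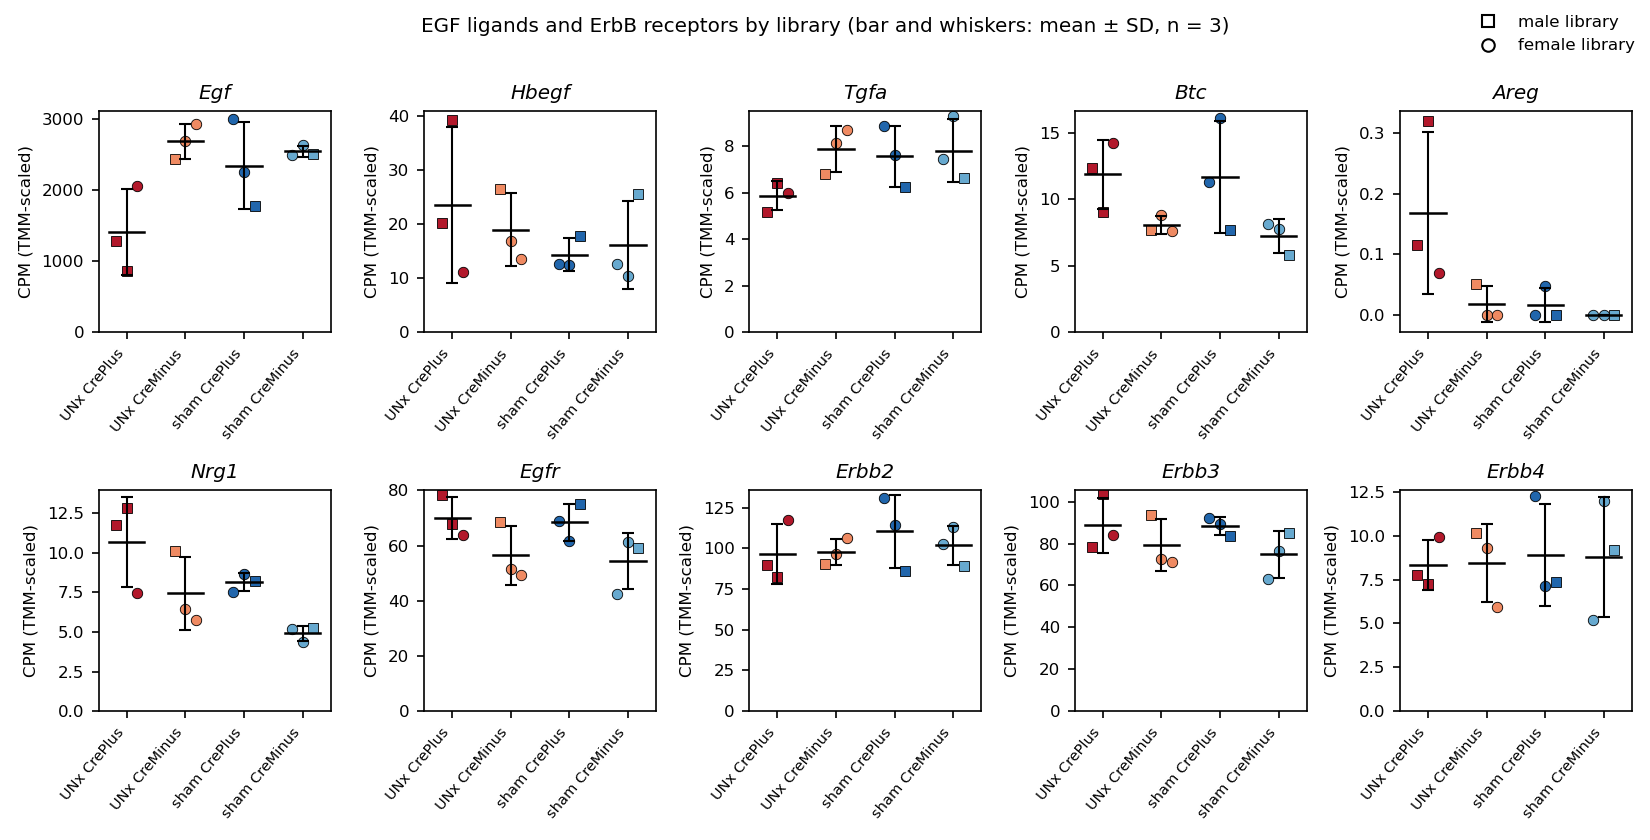
CPM with TMM-scaled library sizes of each member in the 12 libraries, from UNx CrePlus on the left to sham CreMinus on the right; squares are male and circles female libraries, and bars with whiskers give the mean ± SD (n = 3). Egf lies at 870 to 2065 CPM in UNx CrePlus kidneys, below the 2437 to 2931 CPM of UNx CreMinus kidneys, while most other panels overlap between groups.

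Egf encodes the prepro-EGF of the distal nephron (gene 13645, GRCm38 chromosome 3, 129677574 to 129755322, minus strand). It had 1290, 870 and 2065 CPM in the UNx CrePlus kidneys, against 2437, 2701 and 2931 CPM in the UNx CreMinus kidneys. In sham kidneys it had 3005, 2257 and 1785 CPM with Cre and 2492, 2641 and 2518 CPM without. All UNx CrePlus libraries were thus below all UNx CreMinus libraries, whereas the sham groups overlapped and UNx CrePlus overlapped sham CrePlus. The sham overlap came through sham CrePlus replicate 1, and sham CrePlus replicates 2 and 3 were below all sham CreMinus libraries. The authors' deposited sham comparison gives a log2 fold change of -0.08 ± 0.14 (SE). Their second version, without sham CrePlus replicate 1, gives -0.28 ± 0.13, with an unadjusted p of 0.0336 and an adjusted p of 0.970 in the authors' test. In edgeR without that library, Egf had no unadjusted p under 0.05 between the sham groups.

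The log2 fold change of Egf for UNx CrePlus over UNx CreMinus was -0.93 ± 0.28 (SE), with an unadjusted p of 0.00655 and an adjusted p of 0.329 in edgeR's quasi-likelihood test. It did not pass the threshold of 0.05 on the adjusted p over 14970 genes. DESeq2 gave the same size with an adjusted p of 0.0498, just under that threshold, and the authors' deposited table gives a log2 fold change of -0.67 ± 0.20 (SE) with an adjusted p of 0.0542 for this comparison. The deposited fold changes come from the authors' own fit, and their sizes may not be comparable with those fitted here. For Areg, with 21 counts in UNx CrePlus and 2 in UNx CreMinus kidneys, the deposited value is only 0.22 ± 0.13 (SE). Averaged over surgery, the change of Egf with Cre was -0.53 ± 0.20 (adjusted p = 0.331, edgeR). For UNx CrePlus over sham CrePlus it was -0.74 ± 0.28 (adjusted p = 0.692, edgeR), and the difference between the effects of Cre in UNx and in sham kidneys was -0.81 ± 0.39 (adjusted p = 1.0, edgeR).

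Within male libraries Egf had 1290 and 870 CPM in UNx CrePlus and 2437 CPM in UNx CreMinus kidneys. Within female libraries it had 2065 CPM in UNx CrePlus and 2701 and 2931 CPM in UNx CreMinus kidneys, so it was lower with Cre in both sexes. With a term for sex the log2 fold change in UNx kidneys was -0.84 (adjusted p = 0.131, edgeR). In female libraries alone it was -0.44, with 1 UNx CrePlus library in the fit (adjusted p = 1.0, edgeR). Leaving out 1 library at a time gave -1.32 to -0.68, none of which passed. The smallest change was without UNx CrePlus replicate 2, the library of lowest Egf. With a term for depth, Egf had no unadjusted p under 0.05 between the UNx groups in edgeR. With terms for sex and depth its unadjusted p was under 0.05, and it was not called. The only deep library outside UNx CrePlus was UNx CreMinus replicate 1, so depth and Cre status largely went together in UNx kidneys.

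Markers of the segments that make Egf had their lowest sums among the UNx kidneys in UNx CrePlus replicates 1 and 2. The 6 thick ascending limb markers summed to 4872 to 7360 CPM in UNx CrePlus and 7148 to 8033 CPM in UNx CreMinus kidneys, and the 5 distal convoluted tubule markers to 1659 to 3025 CPM in UNx CrePlus and 2832 to 4011 CPM in UNx CreMinus kidneys. In edgeR and in DESeq2 0 of these 6 and 0 of these 5 markers passed. In edgeR 1 of each list had an unadjusted p under 0.05, beside 10.7% of all genes. All 6 and all 5 had a log2 fold change below 0, with medians of -0.33 and -0.43 against -0.01 over all genes. This was not particular to these segments, since 0 of 5 podocyte markers were above 0, with a median of -0.40. Of the proximal tubule, collecting duct and endothelial markers, 3 of 6, 2 of 6 and 4 of 5 were above 0. Per 1000 CPM of thick ascending limb markers, Egf had 265, 135 and 281 CPM in UNx CrePlus and 303, 351 and 410 CPM in UNx CreMinus kidneys. The same ratio was 421, 274 and 299 CPM in sham CrePlus and 392, 352 and 374 CPM in sham CreMinus kidneys. Per 1000 CPM of distal convoluted tubule markers, Egf had 520, 524 and 683 CPM in UNx CrePlus and 861, 768 and 731 CPM in UNx CreMinus kidneys, and 816 to 1038 CPM in sham CrePlus and 824 to 929 CPM in sham CreMinus kidneys. Both ratios were lower in all UNx CrePlus than in all UNx CreMinus libraries, and the thick ascending limb ratio overlapped between UNx CrePlus and sham CrePlus kidneys. These ratios are a description without a test, and the part of the segments' markers in the level of Egf was not tested.

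**Figure D3:**
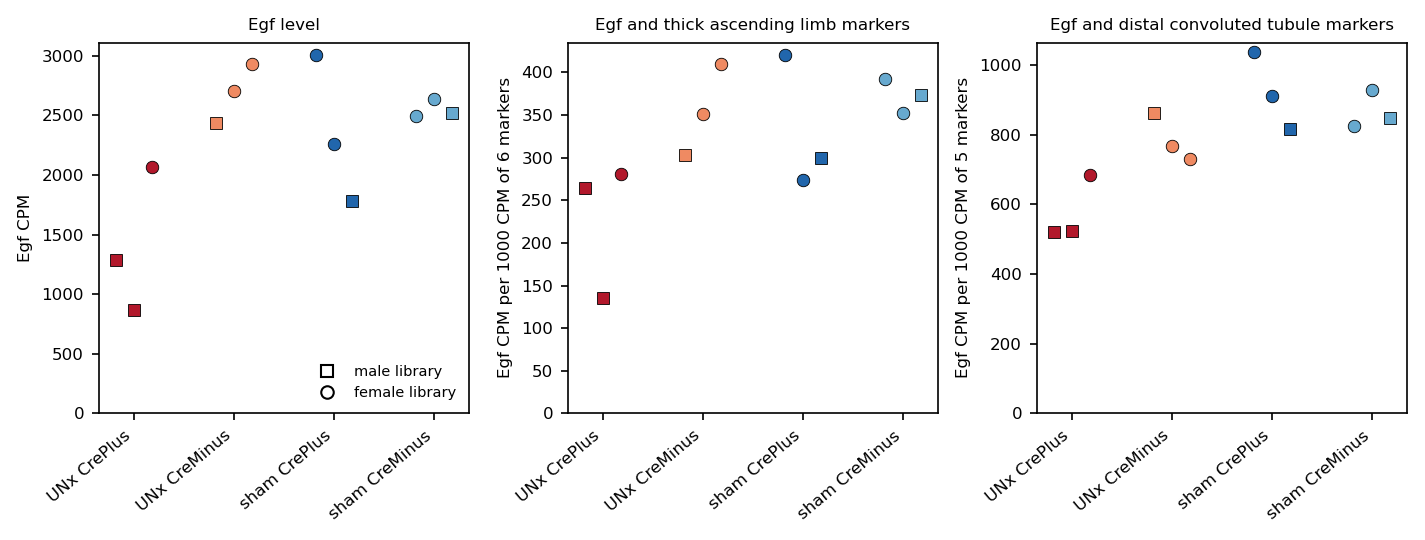
Egf in CPM (left), per 1000 CPM of 6 thick ascending limb markers (middle) and per 1000 CPM of 5 distal convoluted tubule markers (right), with 1 point per library, squares for male and circles for female libraries. In all panels the 3 UNx CrePlus libraries lie below the 3 UNx CreMinus libraries; on the right, at 520 to 683 CPM, they lie below the libraries of all other groups.

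Tgfa encodes TGF-alpha, an EGFR ligand (gene 21802, chromosome 6, 86195038 to 86275744, plus strand). It had 5.19, 6.42 and 5.97 CPM in UNx CrePlus, against 6.79, 8.14 and 8.72 CPM in UNx CreMinus kidneys, with no overlap. In sham kidneys it had 8.86, 7.60 and 6.23 CPM with Cre and 7.47, 9.30 and 6.64 CPM without, and these overlapped. The log2 fold change in UNx kidneys was -0.42 ± 0.18 with an adjusted p of 0.445 in edgeR, which did not pass. It was -0.37 ± 0.18 for UNx CrePlus over sham CrePlus (adjusted p = 0.729, edgeR). Between the UNx groups Tgfa had an unadjusted p of 0.0368 in edgeR. That p was not under 0.05 with a term for sex, a term for depth or both terms. Nor was it under 0.05 without UNx CrePlus replicate 1 or 3, or without UNx CreMinus replicate 2 or 3.

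Btc encodes betacellulin (gene 12223, chromosome 5, 91357261 to 91402994, minus strand). It had 12.4, 9.08 and 14.2 CPM in UNx CrePlus, against 7.72, 8.83 and 7.60 CPM in UNx CreMinus kidneys. Sham CrePlus kidneys had 11.3, 16.1 and 7.71 CPM, against 8.15, 7.75 and 5.80 CPM in sham CreMinus kidneys. The UNx groups did not overlap, and the sham groups overlapped through sham CrePlus replicate 3, a male library. The change with Cre was 0.56 ± 0.25 in UNx (adjusted p = 0.467) and 0.69 ± 0.26 in sham kidneys (adjusted p = 1.0) on the log2 scale in edgeR. Between the UNx groups Btc had an unadjusted p of 0.0486 in edgeR. That p was not under 0.05 with a term for depth or with terms for sex and depth. Nor was it without UNx CreMinus replicate 1, 2 or 3, UNx CrePlus replicate 1 or 3, sham CreMinus replicate 1 or 2, or sham CrePlus replicate 1. Averaged over surgery the change with Cre was 0.63 ± 0.18 (adjusted p = 0.2, edgeR), and it passed in DESeq2 (adjusted p = 0.0415) and in edgeR with a term for sex (0.68, adjusted p = 0.0279). It did not pass with a term for depth (adjusted p = 0.6), with terms for sex and depth (0.235), in female libraries alone (0.117) or in any edgeR fit without 1 library (0.0771 to 0.456).

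Nrg1 encodes neuregulin-1, a ligand of ErbB3 and ErbB4 (gene 211323, chromosome 8, 31807452 to 32891609, minus strand). It had 11.8, 12.8 and 7.46 CPM in UNx CrePlus, against 10.1, 6.44 and 5.78 CPM in UNx CreMinus kidneys. Sham CrePlus kidneys had 7.54, 8.66 and 8.20 CPM, all above the 5.16, 4.37 and 5.24 CPM of sham CreMinus kidneys. The UNx groups overlapped, and all UNx CreMinus libraries were above all sham CreMinus libraries.

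The change of Nrg1 with Cre was 0.51 ± 0.24 in UNx (adjusted p = 0.475) and 0.72 ± 0.24 in sham kidneys (adjusted p = 1.0) on the log2 scale in edgeR, and neither passed. The UNx value was 0.082 with a term for depth, 0.16 with terms for sex and depth, and 0.35 to 0.80 without 1 library at a time. For sham CrePlus over sham CreMinus, the authors' deposited table gives a log2 fold change of 0.51 with an adjusted p of 0.119. Averaged over surgery the change with Cre was 0.62 ± 0.17 (adjusted p = 0.18, edgeR). DESeq2 gave an adjusted p of 0.0405, and no other fit passed, with adjusted p-values of 0.0524 to 0.694 in edgeR. With surgery it was 0.60 ± 0.24 in CreMinus (adjusted p = 1.0, edgeR) and 0.39 ± 0.24 in CrePlus kidneys (adjusted p = 0.808, edgeR). A term for depth turned the value in CrePlus kidneys to -0.33, where all UNx libraries were deep and all sham libraries were not, so surgery and depth cannot be told apart there.

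Hbegf encodes heparin-binding EGF-like growth factor (gene 15200, chromosome 18). It had 20.2, 39.3 and 11.1 CPM in UNx CrePlus, 26.5, 16.8 and 13.6 CPM in UNx CreMinus, 12.6, 12.5 and 17.8 CPM in sham CrePlus, and 12.6, 10.3 and 25.5 CPM in sham CreMinus kidneys. All groups overlapped, and in each of them the male libraries were the highest. The log2 fold change for UNx CrePlus over UNx CreMinus was 0.30 ± 0.45 (adjusted p = 0.857, edgeR), and it was -0.08 with a term for sex and -0.29 without UNx CrePlus replicate 2. For UNx CrePlus over sham CrePlus it was 0.71 ± 0.46 (adjusted p = 0.817, edgeR), and 0.28 with a term for sex.

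Areg, which encodes amphiregulin (gene 11839, chromosome 5, 91139599 to 91148432, plus strand), was near the limit of detection. It had 5, 13 and 3 counts in UNx CrePlus and 2, 0 and 0 counts in UNx CreMinus kidneys, and 0, 1 and 0 counts in sham CrePlus and 0, 0 and 0 counts in sham CreMinus kidneys. The UNx CrePlus libraries were all deep, and their levels were 0.116, 0.320 and 0.0687 CPM. These lay above all UNx CreMinus libraries, at most 0.0514 CPM, and all sham CrePlus libraries, at most 0.0478 CPM. A count of 0 allows up to 3 counts, which is 0.127 to 0.152 CPM in the libraries with no Areg count. UNx CrePlus replicate 2 was above that range, and for UNx CrePlus replicates 1 and 3 a difference from those libraries was not detectable at this depth. Counting limits of this kind cover counting error only. With no filter on low counts in edgeR, Areg had an unadjusted p under 0.05 for UNx CrePlus over UNx CreMinus, as had 1781 of 19749 genes. The same held for UNx CrePlus over sham CrePlus (1182 genes) and for UNx over sham averaged over Cre status (998 genes). Areg was called in none of these fits.

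Egfr, the receptor of EGF itself (gene 13649, chromosome 11, 16752203 to 16913907, plus strand), had 78.3, 67.8 and 63.9 CPM in UNx CrePlus, against 68.6, 51.6 and 49.2 CPM in UNx CreMinus kidneys. Sham CrePlus kidneys had 69.0, 61.5 and 74.9 CPM, against 42.6, 61.4 and 59.0 CPM in sham CreMinus kidneys. The UNx groups overlapped, and the sham CrePlus libraries were above all sham CreMinus libraries, although the nearest pair almost met at 61.5 and 61.4 CPM. The log2 fold change with Cre was 0.31 ± 0.16 in UNx (adjusted p = 0.534) and 0.33 ± 0.16 in sham kidneys (adjusted p = 1.0) in edgeR. Averaged over surgery it was 0.32 ± 0.12 (adjusted p = 0.314, edgeR), which did not pass. In UNx kidneys the value was 0.029 with a term for depth, 0.090 with terms for sex and depth, and 0.21 to 0.47 without 1 library at a time.

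Erbb2, the ligand-less partner receptor (gene 13866, chromosome 11, 98412484 to 98437716, plus strand), had 90.0, 82.3 and 117 CPM in UNx CrePlus and 90.6, 96.8 and 106 CPM in UNx CreMinus kidneys. It had 131, 114 and 86.0 CPM in sham CrePlus and 103, 113 and 89.1 CPM in sham CreMinus kidneys. All groups overlapped, and the male libraries were the lowest of each group.

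Erbb3, the neuregulin receptor of weak kinase activity (gene 13867, chromosome 10, 128567523 to 128589635, minus strand), had 78.6, 103 and 84.2 CPM in UNx CrePlus, 93.6, 72.8 and 71.3 CPM in UNx CreMinus, 92.4, 89.1 and 83.8 CPM in sham CrePlus and 63.0, 76.4 and 85.2 CPM in sham CreMinus kidneys. Its change with Cre averaged over surgery was 0.20 ± 0.10 on the log2 scale (adjusted p = 0.464, edgeR). Erbb4 (gene 13869, chromosome 1, 68031884 to 69108576, minus strand), the other neuregulin receptor, had 7.26 to 9.93 CPM in UNx CrePlus, 5.93 to 10.1 CPM in UNx CreMinus, 7.13 to 12.2 CPM in sham CrePlus and 5.21 to 11.98 CPM in sham CreMinus kidneys. Both receptors overlapped between all groups.

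**Figure D4:**
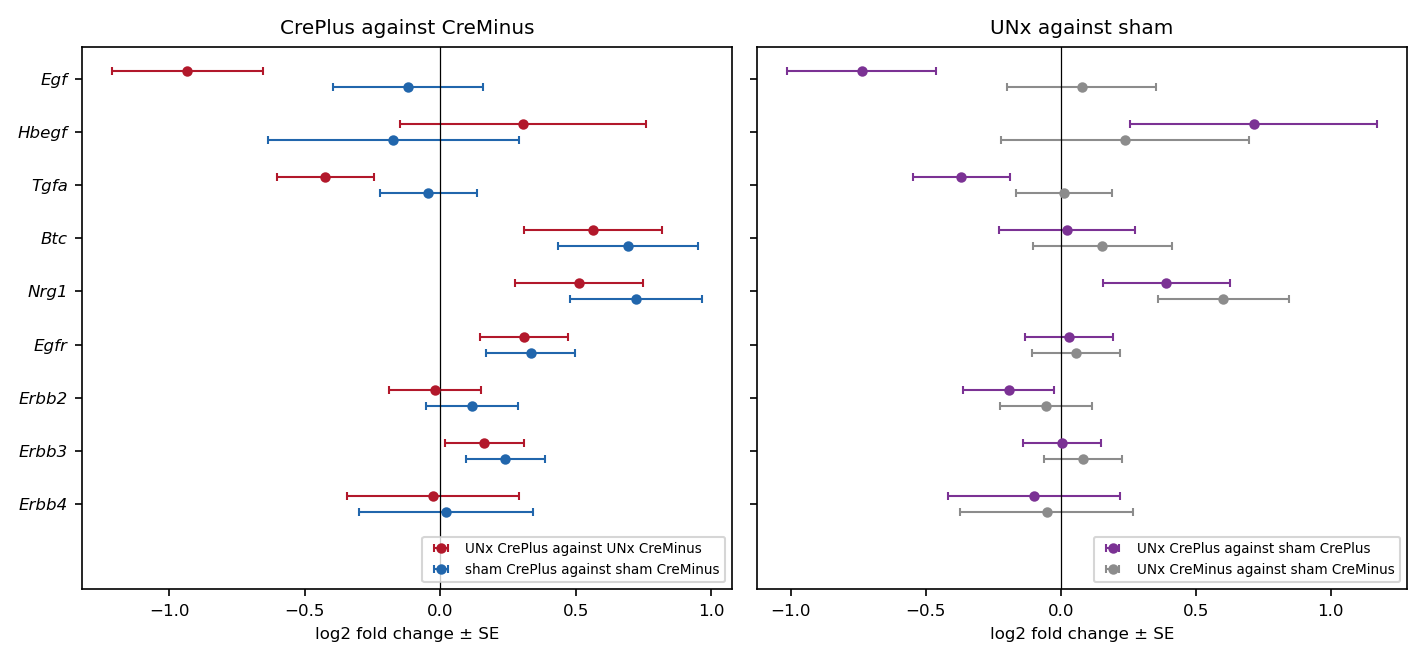
Log2 fold changes ± SE from edgeR for the 9 members that passed the filter on low counts, for CrePlus against CreMinus in UNx and sham kidneys (left) and for UNx against sham in CrePlus and CreMinus kidneys (right). Egf lies at -0.93 and Btc and Nrg1 at 0.56 and 0.51 in the UNx comparison of Cre, and none of the values passed the adjusted threshold.

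Over the family, edgeR called 0 of 9 members between UNx CrePlus and UNx CreMinus, where it called 0.14% of all genes. At an unadjusted p under 0.05 there were 3 (Egf and Tgfa lower, Btc higher), against 10.7% of all genes, and DESeq2 called 1 (Egf) beside 1.21% of all genes. Between sham CrePlus and sham CreMinus edgeR called 0 members, with 0.0267% of all genes called, and 2 (Btc and Nrg1, both higher) were under an unadjusted p of 0.05, against 4.05% of all genes; DESeq2 called 0, with 0.306% of all genes called. For Cre averaged over surgery edgeR called 0 members and 0.521% of all genes. There 4 members had an unadjusted p under 0.05 (Egfr, Btc and Nrg1 higher, Egf lower), against 11.8% of all genes, and DESeq2 called 2 (Btc and Nrg1) beside 2.41% of all genes. With a term for sex edgeR called 1 (Btc) beside 1.97% of all genes. The median log2 fold change of the 9 members was 0.16, 0.12 and 0.07 in these 3 comparisons, against -0.01, 0.00138 and -0.00299 over all genes.

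Sums of injured tubule markers and of macrophage markers overlapped between the UNx groups. The 7 injured tubule markers summed to 2293 to 3685 CPM in UNx CrePlus and 1012 to 3309 CPM in UNx CreMinus kidneys, with 7 of 7 above 0 on the log2 scale. The 7 macrophage markers measured summed to 108 to 195 CPM in UNx CrePlus and 105 to 124 CPM in UNx CreMinus kidneys, with 6 of 7 above 0. In edgeR and in DESeq2 0 markers of these lists were called there, with 2 and 3 at an unadjusted p under 0.05 in edgeR, beside 10.7% of all genes. In sham kidneys the injured tubule sums were 752 to 3255 CPM with Cre and 882 to 2123 CPM without. The macrophage sums were 113 to 160 CPM in sham CrePlus and 109 to 174 CPM in sham CreMinus kidneys. For Cre averaged over surgery, 7 of 7 injured tubule markers were above 0 with a median of 1.10. Of these, 4 had an unadjusted p under 0.05 in edgeR, beside 11.8% of all genes. DESeq2 called Krt20 and Lcn2 higher, beside 2.41% of all genes, both named after their values were seen. In sham kidneys 7 of 7 were above 0 with a median of 0.96. The part of these markers in the values of the family was not tested.

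For UNx against sham, edgeR called 0 members in CrePlus kidneys, in CreMinus kidneys, averaged over Cre status, and in the interaction of Cre status and surgery, and it called 0% of all genes in each of the 4. An unadjusted p under 0.05 was found for 1 member in CrePlus kidneys (Egf, lower; 6.83% of all genes), 1 in CreMinus kidneys (Nrg1, higher; 1.3% of all genes), 1 averaged over Cre status (Nrg1, 0.50 ± 0.17, adjusted p = 0.875; 5.66% of all genes) and 0 in the interaction (1.85% of all genes). DESeq2 called 0 members in these 4 comparisons as well, where it called 0.0456%, 0.0101%, 0.113% and 0% of all genes. The comparisons share libraries: UNx CrePlus enters both the test of Cre in UNx kidneys and that of surgery in CrePlus kidneys.

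Male and female libraries were compared with the 4 group means kept in the model, a comparison added after the data were seen. Erbb2 and Hbegf differed most clearly. Hbegf had 17.8, 25.5 and 39.3 CPM as the lowest, median and highest of the 5 male libraries, against 10.3, 12.6 and 16.8 CPM in the 7 female libraries. Erbb2 had 82.3, 89.1 and 90.6 CPM as the lowest, median and highest of the male libraries, against 96.8, 113 and 131 CPM in the female libraries. Neither gene overlapped between the sexes.

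Hbegf was higher in male libraries, with a log2 fold change of 0.98 ± 0.18 (adjusted p = 0.00374, edgeR), and Erbb2 was lower, with -0.35 ± 0.07 (adjusted p = 0.00621, edgeR). Nrg1 was higher in male libraries by 0.42 ± 0.13 (adjusted p = 0.0478, edgeR), with 5.24 to 12.8 CPM in male and 4.37 to 8.66 CPM in female libraries, which overlapped. The other members did not pass: Egf (-0.43 ± 0.15, adjusted p = 0.071), Btc (-0.43 ± 0.14, adjusted p = 0.0523) and Tgfa (-0.27, adjusted p = 0.114) had negative values, and Egfr (0.26, adjusted p = 0.0752) and Erbb3 (0.17, adjusted p = 0.234) positive ones in edgeR. These 3 calls of 9 members stand beside 20.4% of all genes called, and 7 members had an unadjusted p under 0.05 beside 34% of all genes. DESeq2 called 5, adding Egf and Btc, beside 21.5% of all genes. The labels give no reason for the mix of sexes. Without 1 library at a time, Hbegf (0.83 to 1.13) and Erbb2 (-0.41 to -0.30) passed each time, and Nrg1 did not pass in 9 of 12 fits. Sex and depth were not independent: UNx CrePlus replicate 3 was the only deep female library. With terms for sex and depth edgeR called Erbb2, Hbegf and Btc but not Nrg1, beside 2024 of 14970 genes.

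The exons of Erbb2 overlap those of Mien1 on the opposite strand, and those of Egf, Tgfa and Nrg1 overlap genes with systematic names on the opposite strand. Since the library kit does not mark the strand, reads of such partners could not be told apart. Of the markers, 2 of 6 of the thick ascending limb, 2 of 5 of the distal convoluted tubule, 2 of 6 of the collecting duct, 2 of 5 of endothelium and 5 of 5 of podocytes were called lower in male libraries, and 1 of 6 of the proximal tubule each way, beside 20.4% of all genes called in either direction. Their part in the values of Egf and Erbb2 was not tested.

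**Figure D5:**
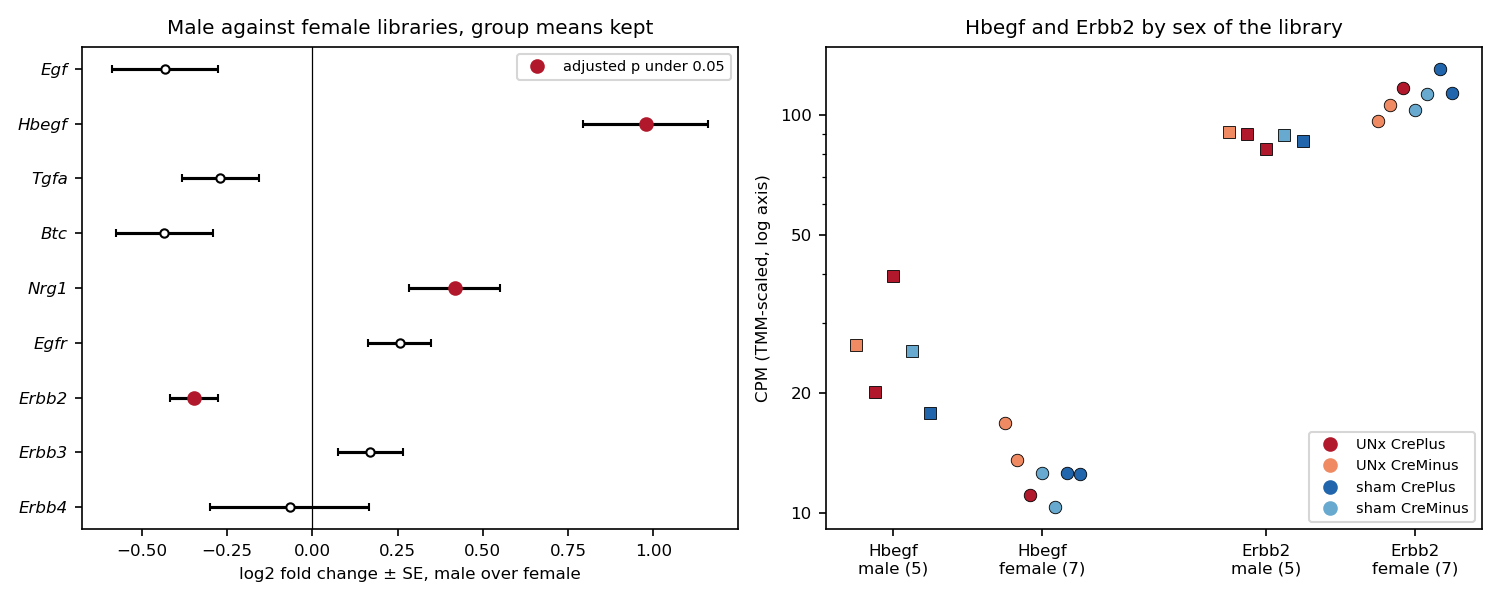
Left, log2 fold change ± SE of 9 members for male over female libraries with the 4 group means in the model, filled red where the adjusted p was under 0.05. Right, CPM on a log axis of Hbegf and Erbb2 in the 5 male (squares) and 7 female (circles) libraries, coloured by group; Hbegf is at 17.8 CPM or more in male and at 16.8 CPM or less in female libraries, and Erbb2 at 90.6 CPM or less in male and at 96.8 CPM or more in female libraries.

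Other genes of the pathway were taken from 6 lists with 67 genes, of which 63 were tested. In edgeR 0 of the 63 were called in any of the 7 comparisons of Cre and surgery. DESeq2 called 2 for Cre in UNx kidneys (Ccnd1 and Myc, higher; 3.17%, against 1.21% of all genes), 4 for Cre averaged over surgery (Adam10, Ccnd1 and Cldn19 higher, Errfi1 lower; 6.25%, against 2.41% of all genes) and 0 in the other 5. At an unadjusted p under 0.05 there were 9 for Cre in UNx kidneys (14.3%, against 10.7% of all genes), 4 in sham kidneys (6.35%, against 4.05%) and 10 averaged over surgery (15.9%, against 11.8%). With surgery there were 5 in CrePlus kidneys (7.94%, against 6.83%), 0 in CreMinus kidneys (against 1.3%), 2 averaged over Cre status (3.17%, against 5.66%) and 1 in the interaction (1.59%, against 1.85%).

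Of the ligand-releasing enzymes and their regulators, Adam10, the sheddase of EGF and betacellulin, had 117 ± 3.96 CPM in UNx CrePlus, 99.4 ± 8.31 in UNx CreMinus, 113 ± 3.15 in sham CrePlus and 94.8 ± 6.60 in sham CreMinus kidneys (SD, n = 3). Its change with Cre averaged over surgery was 0.24 ± 0.06 on the log2 scale (adjusted p = 0.124, edgeR). Adam17, which sheds TGF-alpha, amphiregulin and heparin-binding EGF, had 77.5 ± 1.26 CPM in UNx CrePlus and 70.1 ± 2.40 CPM in sham CrePlus kidneys (adjusted p = 0.716, edgeR). Of the other ErbB ligands only Nrg4 was tested, at 10.7 to 12.2 CPM as group means, and Epgn, Ereg, Nrg2 and Nrg3 had 0 to 6 counts per library.

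Errfi1, which encodes the EGFR inhibitor MIG6, had 452 ± 161 CPM in UNx CrePlus, 757 ± 135 in UNx CreMinus, 355 ± 96.5 in sham CrePlus and 569 ± 50.7 in sham CreMinus kidneys. Its log2 fold change with Cre averaged over surgery was -0.71 ± 0.19 (adjusted p = 0.155, edgeR), and it was lower in the mean with Cre after both operations. Ccnd1, which encodes cyclin D1, had 552 ± 67.7 CPM in UNx CrePlus, 318 ± 72.6 in UNx CreMinus, 425 ± 99.0 in sham CrePlus and 319 ± 55.8 in sham CreMinus kidneys, a change with Cre of 0.60 ± 0.15 (adjusted p = 0.14, edgeR). Myc, a transcription factor of cell growth, had 8.51 ± 1.35 CPM in UNx CrePlus and 4.47 ± 1.198 CPM in UNx CreMinus kidneys (adjusted p = 0.277, edgeR). Stat3, a transcription factor downstream of many receptors, had 113 ± 10.7 CPM in UNx CrePlus and 83.3 ± 2.71 CPM in UNx CreMinus kidneys (adjusted p = 0.344, edgeR), and Nras, a RAS protein of the cascade, had 46.6 ± 3.52 CPM in UNx CrePlus and 38.5 ± 1.06 CPM in UNx CreMinus kidneys (adjusted p = 0.246, edgeR). Spry1, a feedback inhibitor of the cascade, had 26.5 ± 4.00 CPM in UNx CrePlus and 17.0 ± 2.62 CPM in sham CrePlus kidneys (adjusted p = 0.692, edgeR). None of these passed in edgeR.

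EGF is known to raise magnesium uptake through TRPM6. Of the 7 genes of magnesium handling, Cldn19, a claudin of the thick ascending limb, came closest, with 49.1 ± 5.66 CPM in UNx CrePlus, 36.7 ± 1.53 in UNx CreMinus, 44.9 ± 7.11 in sham CrePlus and 33.9 ± 3.47 in sham CreMinus kidneys. Its change with Cre averaged over surgery was 0.41 ± 0.09 (adjusted p = 0.0852, edgeR). In UNx kidneys 3 of the 7 genes had a log2 fold change above 0, with a median of -0.16 against -0.01 over all genes. Trpm6 itself, named after its values were seen, had -0.54 ± 0.29 there (adjusted p = 0.552, edgeR), which did not pass. Cnnm2, a magnesium transporter or sensor of the distal nephron, had 50.02 ± 9.66 CPM in UNx CreMinus and 41.6 ± 3.42 CPM in sham CreMinus kidneys (adjusted p = 1.0, edgeR).

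Between male and female libraries 11 of the 63 pathway genes were called in edgeR, 4 higher and 7 lower in male libraries, beside 20.4% of all genes. Of the kinases of the cascade, Braf (0.46 ± 0.09, adjusted p = 0.00638) was higher in male libraries, and Mapk3 (-0.28 ± 0.05, adjusted p = 0.00392) and Map2k1 (-0.28 ± 0.07, adjusted p = 0.0117) were lower. Nrg4, a ligand of ErbB4, was higher by 0.28 ± 0.09 (adjusted p = 0.0474, edgeR). Phlda1 (-0.73 ± 0.19) and Etv4 (-0.79 ± 0.25), both induced by the cascade, the inhibitors Socs5 (-0.27 ± 0.07) and Lrig3 (-0.24 ± 0.07), and Cldn16 (-0.39 ± 0.12), the partner claudin of Cldn19, were called lower.

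Genes whose levels ran most alike with each member over the 12 libraries were found by Pearson's r of log2 CPM, as a description over libraries that share depth, sex and group. For Egf they were Tmem65 (r = 0.94), Bsnd (0.93), which encodes a chloride channel subunit of the thick ascending limb, and Sptb (0.92). For Hbegf they were Prcp (0.96), Plod2 (0.96) and Rbm38 (0.94), and for Btc Dcbld2 (0.96) and Gpt2 (0.93). Those of Egfr were Usp24 (0.96) and Nupl1 (0.94), and those of Erbb2 were Atp8b1 (0.94), Slit2 (0.94) and Peg13 (0.93). For Nrg1 they were Ubash3b (0.92), Cttn (0.90) and Tuba1c (0.90), for Tgfa Zfp874b (0.90), Acsm1 (0.89) and Id4 (0.89), for Erbb3 Rhbdd1 (0.92), Wipi1 (0.90) and Tcf20 (0.88), and for Erbb4 Ptch1 (0.91), Arhgap5 (0.91) and Vprbp (0.90).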

How the data were processed

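Total RNA of whole kidney was extracted with a column kit, treated with DNase and made into libraries with the SMART-Seq v4 kit, per the labels' protocols. For each library the authors deposited read counts per gene as whole numbers, and these were used unchanged. The tables also hold log2 fold changes by the authors, a test statistic (a score per gene, as deposited), and p-values with adjusted p-values, per the file headers. The submitters' processing notes list cutadapt 1.11, FastQC 0.11.5, DESeq2 and HTSeq, and the builds GRCm38 and mm10. The aligner, gene models and strandedness of counting were not given in the sources used here.

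The 6 tables held 24067 genes each, and the 35 library columns that recur between tables were identical. The model was fitted with edgeR 4.0.16 in R 4.3.3: filterByExpr kept 14970 genes, library sizes were scaled by TMM (factors 0.925 to 1.05), 1 model with 4 group means was fitted by quasi-likelihood to all 12 libraries, and a Benjamini-Hochberg adjusted p under 0.05 was called. The SE is the size of the fold change over the square root of F. CPM per kilobase uses the union of exons of protein-coding transcripts on GRCm38. Alternatives were RLE scaling, DESeq2 1.42.0, other filters, terms for sex or depth, female libraries only, only the groups compared, and each library left out in turn. The fit was tested on simulated data.

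Groups came from the labels, and replicates were numbered here in the order of the samples. Nothing in the labels says how the animals relate, so the p-values reflect only spread among these libraries, which may be technical. Sex was read from Xist and Y-linked counts. All 10 members were named, with, from each pathway list, up to 4 called genes by p, or the 2 of smallest p where none was called; likeness took 3 genes per member among 12704 genes with a mean of at least 1 CPM. Results for some single genes that these rules name are not reported here. The members and lists were chosen with earlier results of these data known. The promoter table had no entry for Hbegf, Erbb3 and Nrg1.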

Additional observations from a re-analysis of the deposited data

How the results depend on the processing

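Of the alternatives run, 756 values were counted as the same. For fold changes this meant the same direction and side of the threshold. Counts of called members had to be equal or close, and mean levels had to move by less than their SD or not at all. Of the fold changes 11 came to pass the threshold, 10 no longer passed it and 10 turned round, and 4 counts of called members moved. The count of called members for Cre in UNx kidneys was 1 with DESeq2 (0 in edgeR). For Cre averaged over surgery it was 2 with DESeq2 and 1 with a term for sex, and between male and female libraries it was 5 with DESeq2, against 3 in edgeR. Without 1 library at a time the counts were 0 in the 7 comparisons of Cre and surgery and 2 to 3 between male and female libraries.

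The log2 fold change of Hbegf for UNx CrePlus over UNx CreMinus turned to -0.080 with a term for sex, -0.17 with a term for depth and -0.45 in female libraries, and ranged from -0.29 to 0.64 without 1 library. For UNx CrePlus over sham CrePlus, Hbegf was -0.085 with the depth term and -0.18 in female libraries. In that comparison Nrg1 was -0.33 with the depth term, -0.16 with sex and depth terms and -0.11 in female libraries, and averaged over Cre status it was -0.0097 with the depth term. The cause was not tested. With the depth term the fit leans on UNx CreMinus replicate 1, the only deep library outside UNx CrePlus. No paired analysis was possible because the labels give no replicate numbers. Depth limits Areg, which had at most 13 counts.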
